A study of Mus musculus with 6 samples.

Results

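MERVL and the mammalian apparent LTR retrotransposons (MaLR) were followed in germ cells of Dnmt3A KO/KO and WT/WT mice. Of the 1205 repeat families counted in the files, 148 were taken by their names, namely those that begin with MERVL, MT, ORR1 or MLT. They fell into 7 subgroups, with 2 MERVL internal parts, 6 MT2 LTRs, 20 MT families, 29 ORR1 families, 60 MLT1 families, 10 MLT2 LTRs and 21 other rows. Those 21 others are 20 MLTR rows and MLT-int, which came in by their letters alone, and the files do not give their class. In all, 59 of the 148 rows are internal parts and 89 are LTRs.

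The KO/KO libraries came from Dnmt3A KO/KO mice (n = 3) and the WT/WT libraries from Dnmt3A WT/WT mice (n = 3). All were male C57BL/6 mice at 10 days post partum, and all cells were sorted for bright and medium Id4-GFP, a reporter gate given by the labels as an approximation of spermatogonial stem cells. The labels do not describe how the KO allele was made or in which cells it acts, nor whether the numbered samples came from separate animals, so p-values measure only the spread between these samples. The comparison addresses how the RNA of these repeats differs between mice of these Dnmt3A genotypes.

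MERVL is an endogenous retrovirus of the ERVL class that is transcribed in the cleavage-stage mouse embryo, and MT2_Mm is the LTR that serves as its promoter. The MaLR families MT (apart from the MT2 LTRs), ORR1 and MLT1 are older relatives that lack retroviral genes of their own. LTRs of this MT group act as promoters of many transcripts in the mouse oocyte. In the male germ line, DNMT3A is one of the enzymes that place new DNA methylation, a mark that helps to keep LTR elements silent, together with histone-modifying repressors.

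Dnmt3a itself had 90.2, 104 and 99.5 CPM in the KO/KO libraries, against 215, 193 and 188 CPM in the WT/WT libraries. CPM scale a row's counts by the library's gene counts, after TMM normalisation of the gene rows. The genotypes did not overlap, and the log2 fold change of KO/KO over WT/WT was -1.02 (SE 0.09, with 3 libraries of each genotype; edgeR adjusted p = 0.000189). Dnmt3a RNA was thus lower and not absent in the KO/KO libraries, and counts over the whole gene do not show which parts of it were transcribed. The gene rows held between 42681201 and 61749155 counts per library, with the deepest library being KO/KO replicate 3. Repeat families took 15.5%, 15.1% and 15.1% of all counts in the KO/KO libraries and 14.7%, 14.9% and 14.1% in the WT/WT libraries. The chi-square per degree of freedom over the 148 families was between 7.77 and 9.32 within KO/KO and between 3.54 and 3.86 within WT/WT. Across genotypes it was between 6.24 and 11.4. Every pair of libraries thus differed by more than the sampling noise of independently counted reads. Reads counted at several positions would raise these values, and the treatment of such reads is not stated.

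After TMM scaling, the 148 families stood at nearly the same summed level in both genotypes. They added up to 14323, 14104 and 12391 CPM in the KO/KO libraries, against 14039, 13588 and 13094 CPM in the WT/WT libraries. The genotypes overlapped, with the 2 highest libraries and the lowest library all KO/KO. The means were 13606 ± 1058 CPM in KO/KO and 13574 ± 472 CPM in WT/WT (SD, n = 3 each), a ratio of 1.00. The TMM factors were 1.02, 1.03 and 1.04 in KO/KO and 0.960, 0.994 and 0.956 in WT/WT. With gene totals alone, the log2 ratio of the sums was 0.089, and the median log2 fold change of all genes was 0.09. The families took between 7.27% and 8.16% of the repeat counts in KO/KO libraries and between 7.62% and 7.81% in WT/WT libraries. In such bulk samples, fewer cells of a type and less RNA per cell cannot be told apart.

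Counts of a family pool all its genomic copies, and this was a total RNA library. A family's counts therefore do not show whether reads came from an element's own promoter or from copies inside introns and exons of other transcripts. Copy numbers and lengths of the families are not in the files, so levels are compared between genotypes and not between families.

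Of the 148 families, 140 had enough counts to be tested. The 8 that were not tested are all MLT1 internal parts, with between 0 and 67 counts over the 6 libraries together. MLT1E1-int and MLT1O-int had 0 counts in every library, which allows up to 0.0735 CPM in the shallowest library (3 counts, counting error only).

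Among the 140 tested families, 1 was higher and 0 were lower in KO/KO by edgeR's quasi-likelihood test at a threshold of 0.05 on the p adjusted over all 22473 rows, and the family that rose was ORR1G-int. The background was 14.1% of all rows tested in either direction, with 7.97% higher and 6.13% lower, and 1.38% of the 1159 repeat families. The members stood at 0.714%. At an unadjusted p under 0.05, 2 members passed, ORR1G-int and MLT1C2-int, where 28.6% of all rows and 6.38% of the repeat families did. That number was 12 without KO/KO replicate 3, 4 without KO/KO replicate 2 and 1 when any single WT/WT library was left out, and it was 15 with gene totals alone. DESeq2 likewise called 1 member higher and 0 lower, and limma-voom the same numbers.

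The log2 fold changes of the tested members had a median of 0.01, with 75 above 0 and 65 below. The median of all rows was 0.00, that of the other repeat families 0.02, and that of RLTR families, another group of mouse LTR elements, 0.05. The quartiles of the members were at -0.04 and 0.09, and 122 of 140 lay within 0.2 of 0 in either direction (87.1%), against 66.7% of the other repeat families. The 95% interval of the fold change lay within 0.5 of 0 for 112 members and within 1 of 0 for 129. Scaled to gene totals without TMM factors, the median of the members was 0.10 and that of all genes 0.09.

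**Figure D1:**
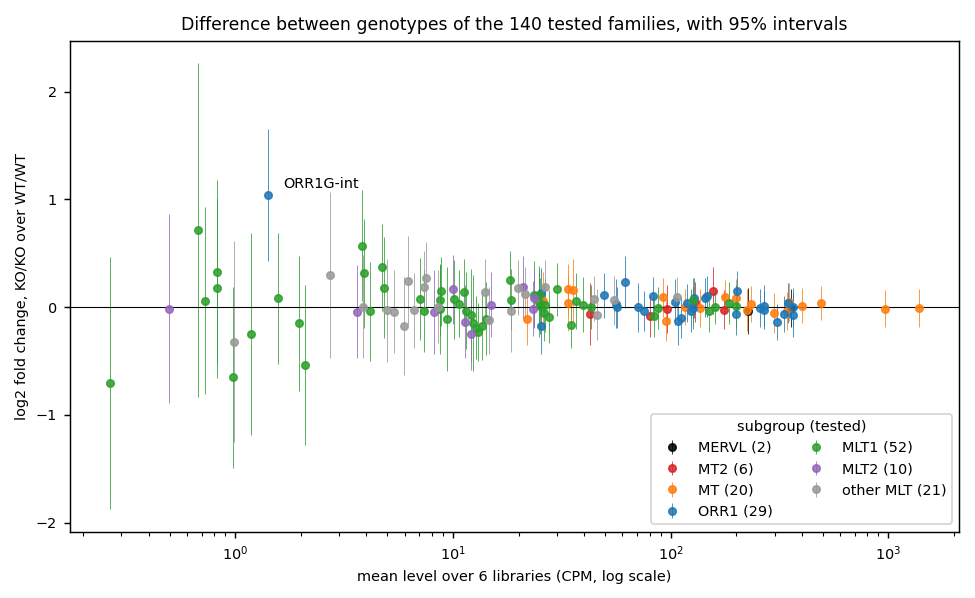
Each point is 1 of the 140 tested families, placed by its mean level over the 6 libraries (CPM, log scale) and its log2 fold change of KO/KO over WT/WT, with the 95% interval as a bar and the subgroup as colour. Points close in on 0 as the level grows, and ORR1G-int, at a log2 fold change of 1.04, is the one family past the adjusted threshold.

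The precision followed the counts. For the 43 members with a mean of at least 100 CPM, which had between 30369 and 400083 counts over all libraries, the SE of the log2 fold change was between 0.07 and 0.10. Their fold changes lay between -0.14 and 0.15 on the log2 scale, and the widest 95% bounds among them were -0.35 and 0.37. For the 37 tested members under 10 CPM the SE ran between 0.14 and 0.70, so that a doubling was not detectable in the rarest of them at this depth.

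MERVL-int, the internal part that carries the retroviral genes of MERVL, had 389, 355 and 326 CPM in KO/KO libraries, against 365, 362 and 349 CPM in WT/WT libraries. The 3 WT/WT values lay inside the range of the KO/KO values. Its log2 fold change was -0.01 (95% interval -0.19 to 0.17, edgeR adjusted p = 0.966). The related internal part MERVL_2A-int had 249, 229 and 194 CPM in KO/KO, against 236, 231 and 220 CPM in WT/WT, again with the WT/WT values inside the KO/KO range. The fold change was -0.03 on the log2 scale (95% interval -0.25 to 0.18, edgeR adjusted p = 0.856).

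MT2_Mm, the promoter LTR of MERVL, had 102, 99.8 and 83.1 CPM in KO/KO and 104, 93.8 and 91.1 CPM in WT/WT. The genotypes overlapped, with KO/KO replicate 3 lowest. The log2 fold change was -0.02 (95% interval -0.24 to 0.21, edgeR adjusted p = 0.924). The ratio of MERVL-int to MT2_Mm counts was 3.80, 3.56 and 3.92 in KO/KO libraries and 3.51, 3.85 and 3.83 in WT/WT libraries, so the internal part and its LTR kept overlapping proportions in the genotypes.

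The other MT2 LTRs belong to older ERVL elements, and none passed the test. MT2B1 had the most positive fold change of the subgroup, with 175, 175 and 143 CPM in KO/KO against 158, 143 and 142 CPM in WT/WT. The genotypes overlapped only through KO/KO replicate 3, and the log2 fold change was 0.15 (SE 0.10, edgeR adjusted p = 0.331). MT2B, the most abundant, had 188, 174 and 159 CPM in KO/KO and 180, 179 and 171 CPM in WT/WT. MT2A, MT2B2 and MT2C_Mm had log2 fold changes of 0.05, -0.08 and -0.07. For all 6 MT2 LTRs and both MERVL internal parts the 95% interval lay within 0.5 of 0.

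**Figure D2:**
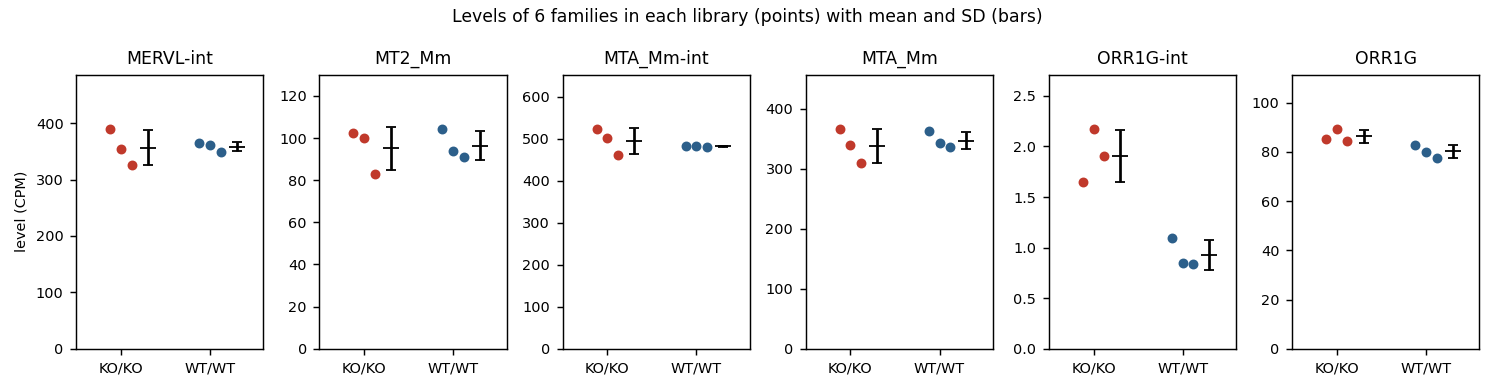
Levels in CPM of 6 families in the 3 KO/KO and the 3 WT/WT libraries (points), with the mean and SD of each genotype as bars and every axis starting at 0. The genotypes overlap for MERVL-int, MT2_Mm, MTA_Mm-int and MTA_Mm, while all 3 KO/KO points lie above all WT/WT points for ORR1G-int and, by a smaller margin, for ORR1G.

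The MT families made up between 41.3% and 41.9% of the members' counts in every library, and none of the 20 passed the test. Their sum was 5937, 5841 and 5191 CPM in KO/KO and 5832, 5617 and 5486 CPM in WT/WT. The genotypes overlapped, and the median log2 fold change was 0.02. By letter, the median was -0.00 for the 2 MTA families, 0.05 for the 4 MTB, 0.01 for the 2 MTC, -0.02 for the 2 MTD and 0.04 for the 9 MTE families.

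MTA is the youngest MT group and the one best known as an oocyte promoter. MTA_Mm, its LTR, had 366, 340 and 309 CPM in KO/KO and 363, 342 and 337 CPM in WT/WT, a log2 fold change of -0.04 (95% interval -0.22 to 0.14, edgeR adjusted p = 0.808). The internal part MTA_Mm-int had 522, 501 and 461 CPM in KO/KO and 482, 484 and 480 CPM in WT/WT. Its WT/WT values were within a narrow band, and the KO/KO values lay on both sides of them. The log2 fold change was 0.04 (95% interval -0.12 to 0.20, edgeR adjusted p = 0.782). The ratio of MTA_Mm-int to MTA_Mm was 1.43, 1.47 and 1.49 in KO/KO libraries and 1.33, 1.41 and 1.43 in WT/WT libraries. The genotypes did not overlap, but the lowest KO/KO and the highest WT/WT ratio were equal to 3 digits, and the difference was not tested.

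MTD and MTC were the most abundant MT LTRs. MTD had 1447, 1438 and 1241 CPM in KO/KO and 1424, 1393 and 1344 CPM in WT/WT, with a log2 fold change of -0.01. MTC had 993, 1002 and 881 CPM in KO/KO and 1023, 941 and 945 CPM in WT/WT, with a log2 fold change of -0.02. In both families KO/KO replicate 3 was the lowest library and the genotypes overlapped. MTB_Mm-int and MTE2b-int had the most positive log2 fold changes of the subgroup, both 0.16, and MTEa-int and MT-int the most negative, -0.13 and -0.11. MTEa-int had 99.1, 89.4 and 84.5 CPM in KO/KO and 99.2, 100.2 and 98.7 CPM in WT/WT (edgeR adjusted p = 0.360).

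The ORR1 families, with between 33.1% and 33.6% of the members' counts, held the single call. ORR1G-int, an internal part of the ORR1G group, was counted 74, 107 and 123 times in the KO/KO libraries, against 48, 41 and 34 times in the WT/WT libraries. This came to 1.65, 2.17 and 1.91 CPM in KO/KO and 1.10, 0.851 and 0.833 CPM in WT/WT. All 3 KO/KO libraries were above all 3 WT/WT libraries, and KO/KO replicate 3, low for most members, was not low here. The means were 1.91 ± 0.258 CPM in KO/KO and 0.927 ± 0.146 CPM in WT/WT (SD, n = 3 each). The log2 fold change was 1.04 (SE 0.28, 95% interval 0.43 to 1.66, edgeR adjusted p = 0.0328).

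That call rested on 427 counts in all and was close to its threshold. Adjusted over the repeat families alone, the p of ORR1G-int from the joint edgeR fit was 0.384, where 0.0863% of the families passed. With the families fitted alone, which pools their spread far more strongly, the edgeR adjusted p was 0.0369. Leaving out 1 library at a time, the edgeR adjusted p was 0.0526 without KO/KO replicate 3, 0.0773 without KO/KO replicate 2 and 0.0649, 0.133 and 0.114 with WT/WT replicate 1, 2 or 3 left out. It was 0.0354 without KO/KO replicate 1. The log2 fold change stayed between 0.95 and 1.17 in all of these fits.

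ORR1G, the LTR that goes with ORR1G-int, was named after its values were seen. It had 85.4, 89.2 and 84.4 CPM in KO/KO against 83.0, 79.8 and 77.7 CPM in WT/WT. The genotypes did not overlap, but the log2 fold change was 0.11 and missed the threshold (SE 0.08, edgeR adjusted p = 0.411). Because the LTR held most of the group's counts, the 2 rows together had 87.1, 91.3 and 86.3 CPM in KO/KO and 84.1, 80.6 and 78.6 CPM in WT/WT. The ratio of ORR1G-int to ORR1G was 0.0194, 0.0243 and 0.0226 in KO/KO and 0.0132, 0.0107 and 0.0107 in WT/WT.

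None of the other 28 ORR1 families passed the test. ORR1D-int had 72.2, 71.4 and 56.3 CPM in KO/KO and 58.6, 54.2 and 57.3 CPM in WT/WT, so KO/KO replicates 1 and 2 were above every WT/WT library and KO/KO replicate 3 was not. Its log2 fold change was 0.23 (SE 0.11, edgeR adjusted p = 0.194), and without KO/KO replicate 3 it was 0.35 (edgeR adjusted p = 0.0293). ORR1B1-int ran the other way, with 306, 299 and 268 CPM in KO/KO and 323, 329 and 312 CPM in WT/WT. All KO/KO values were below all WT/WT values, at a log2 fold change of -0.14 (95% interval -0.31 to 0.03, edgeR adjusted p = 0.254). ORR1F-int had the most negative log2 fold change of the subgroup, at -0.17 (95% interval -0.44 to 0.10, edgeR adjusted p = 0.390). Its genotypes overlapped through KO/KO replicate 1.

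The 2 most abundant ORR1 LTRs were ORR1F and ORR1D1. ORR1F had 380, 385 and 331 CPM in KO/KO and 379, 365 and 352 CPM in WT/WT, with a log2 fold change of -0.00. ORR1D1 had 391, 366 and 311 CPM in KO/KO and 389, 374 and 358 CPM in WT/WT, with a log2 fold change of -0.07. By letter, the median log2 fold change was 0.02 for ORR1A, -0.01 for ORR1B, -0.08 for ORR1C, -0.00 for ORR1D, 0.04 for ORR1E and -0.09 for ORR1F. The whole ORR1 subgroup had a median of -0.00.

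The MLT1 families are the oldest MaLR group and are shared with other mammals. Their sum was 1643, 1702 and 1453 CPM in KO/KO and 1674, 1598 and 1498 CPM in WT/WT, and the median log2 fold change of the 52 tested was 0.02. MLT1A0, the most abundant, had 206, 215 and 178 CPM in KO/KO and 209, 195 and 190 CPM in WT/WT. MLT1D, next in abundance, had a log2 fold change of 0.04. Neither family's genotypes separated.

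The widest fold changes of MLT1 were in scarce internal parts. Below a mean of 1 CPM, MLT1H1-int had a log2 fold change of 0.71, MLT1J2-int of -0.71 and MLT1E1A-int of -0.65. None of them passed the test, only MLT1J2-int had genotypes without overlap, and they were picked out after their values were seen. The families that follow had a mean of at least 1 CPM. MLT1C2-int had 5.45, 4.99 and 3.26 CPM in KO/KO against 3.29, 3.16 and 2.75 CPM in WT/WT. KO/KO replicates 1 and 2 stood above the WT/WT libraries and replicate 3 among them. The log2 fold change was 0.57 (SE 0.23, edgeR adjusted p = 0.136), and 0.78 without KO/KO replicate 3 (edgeR adjusted p = 0.0317). MLT1A-int had 5.32, 6.10 and 4.64 CPM in KO/KO and 4.11, 4.40 and 3.90 CPM in WT/WT, without overlap, at a log2 fold change of 0.37 (edgeR adjusted p = 0.214). MLT1H2-int and MLT1A1-int had log2 fold changes of -0.54 (95% interval -1.28 to 0.20) and -0.25 (95% interval -1.19 to 0.68), with overlapping genotypes.

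The MLT2 LTRs, which belong to ERVL elements and not to MaLR, summed to 131, 140 and 116 CPM in KO/KO and 135, 129 and 118 CPM in WT/WT. None of the 10 passed the test. Their log2 fold changes ran between -0.25 for MLT2C1 and 0.19 for MLT2B3. MLT2C1 had 12.6, 10.7 and 9.75 CPM in KO/KO and 14.3, 13.0 and 12.1 CPM in WT/WT, overlapping through KO/KO replicate 1. MLT2B4 and MLT2D, the 2 most abundant, had log2 fold changes of 0.08 and -0.01, and MLT2B2 and MLT2F of 0.16 and -0.13.

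The MLTR rows and MLT-int summed to 453, 456 and 401 CPM in KO/KO and 435, 420 and 398 CPM in WT/WT, with a median log2 fold change of 0.07. MLTR31D_MM had 8.89, 7.94 and 7.89 CPM in KO/KO and 7.17, 7.10 and 6.23 CPM in WT/WT. The genotypes did not overlap, and the log2 fold change of 0.27 missed the threshold (edgeR adjusted p = 0.275). MLTR14 and MLTR11B, the most abundant, had log2 fold changes of 0.09 and 0.07. MLTR13, MLTR18_MM and MLTR73 had log2 fold changes of 0.30, -0.18 and -0.12, all with overlapping genotypes.

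**Figure D3:**
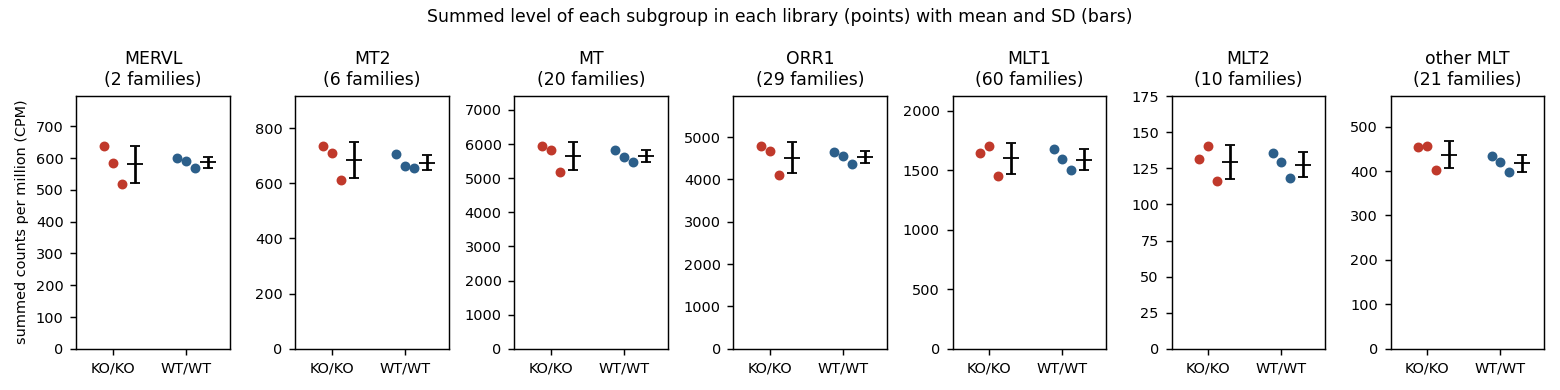
Summed level in CPM of each of the 7 subgroups in the 3 KO/KO and 3 WT/WT libraries (points), with the mean and SD of each genotype as bars and each axis starting at 0. In every panel the genotypes overlap; the MT families lie between 5191 and 5937 CPM and the ORR1 families between 4099 and 4786 CPM.

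Families whose 3 KO/KO values all lay on one side of the 3 WT/WT values were few. This held for 8 of the 140 tested members with KO/KO higher and 4 with KO/KO lower, where 17.8% and 16.9% of all rows, and 9.15% and 5.69% of the repeat families, did so. The 8 higher were MTE-int, ORR1A0, ORR1G, ORR1G-int, MLT1E3, MLT1A-int, MLTR31FA_MM and MLTR31D_MM, and the 4 lower were ORR1B1-int, MLT1E2, MLT1D-int and MLT1J2-int. Those among them that are not described elsewhere were picked out after their values were seen. MTE-int, for instance, had 187, 187 and 177 CPM in KO/KO and 172, 176 and 169 CPM in WT/WT, a log2 fold change of 0.09 (edgeR adjusted p = 0.424). Internal parts and LTRs had similar medians, 0.03 over 51 tested internal parts and 0.00 over 89 LTRs.

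Levels of many members shifted together in some libraries, most clearly in KO/KO replicate 3. Over the 132 members with a mean of at least 1 CPM, the median log2 difference to the WT/WT mean was 0.08, 0.08 and -0.13 in KO/KO replicates 1, 2 and 3, and 0.06, 0.01 and -0.06 in WT/WT replicates 1, 2 and 3. KO/KO replicate 3 was the lowest of the 6 libraries for 73 of these families and WT/WT replicate 3 for 40, while KO/KO replicates 1 and 2 were the highest for 43 and 46. The median coefficient of variation was 8.90% in KO/KO and 5.41% in WT/WT.

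The other repeat families had a similar order of libraries. The 910 other repeat families with a mean of at least 1 CPM had medians of 0.09, 0.06 and -0.10 in the KO/KO libraries and 0.06, 0.02 and -0.08 in the WT/WT libraries. Scaled to the counts of all repeat families in place of genes, the members' medians were 0.05, 0.11 and -0.08 in KO/KO and 0.03, 0.00 and -0.02 in WT/WT. KO/KO replicate 3 was also the library in which the LINE family L1MdTf_I stood out, at 964, 877 and 1935 CPM in KO/KO and 861, 881 and 858 CPM in WT/WT; its part in the members' levels was not tested. Without KO/KO replicate 3 the median log2 fold change of the members was 0.10, that of the other repeat families 0.09 and that of genes 0.00.

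**Figure D4:**
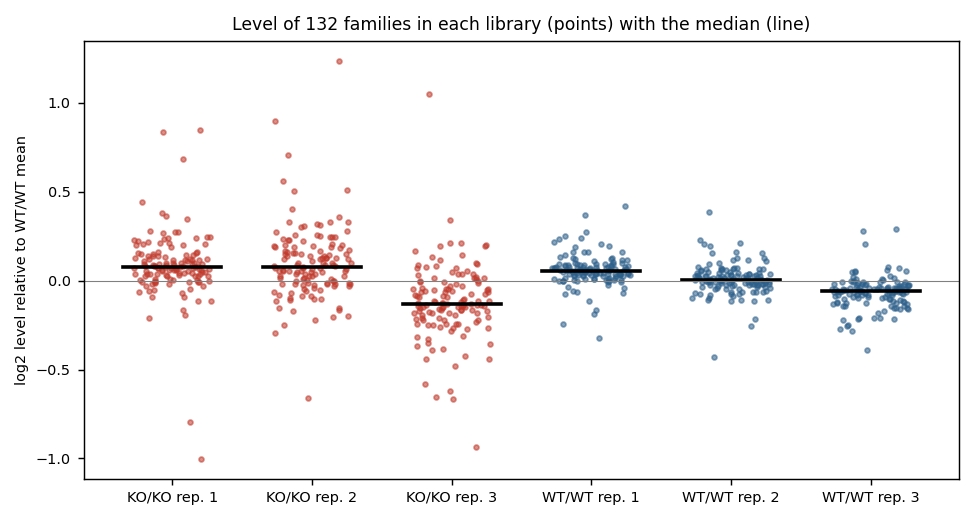
Each point is 1 of the 132 families with a mean of at least 1 CPM, given as its log2 level relative to its WT/WT mean, for the 3 KO/KO and then the 3 WT/WT libraries, with the median as a black line. The line is lowest in KO/KO replicate 3, at -0.13, and highest in KO/KO replicates 1 and 2, at 0.08.

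Genes whose products are known to repress MERVL or other LTR elements, mostly from work in mouse embryonic stem cells, were measured beside the families. Of 22 listed repressors, 8 were lower and 1 higher in KO/KO (edgeR adjusted p under 0.05), where 6.13% and 7.97% of all rows were, and their median log2 fold change was -0.14, against 0.00 for all genes. The 8 were the histone methyltransferase genes Ehmt1 and Ehmt2, the demethylase gene Kdm1a, the chromatin assembly gene Chaf1b, the zinc finger gene Zmym2, the Polycomb-related genes L3mbtl2 and Rybp, and the gene of the chromatin silencing protein SMCHD1, Smchd1. Other repressors were not called but did not overlap. The Polycomb-related Rnf2 and Pcgf6 were higher, at log2 fold changes of 0.20 and 0.17, as were Morc3 at 0.17 and Daxx at 0.12. Hdac1 was lower, at -0.18. Of all rows, 17.8% were higher and 16.9% lower without overlap. The number of repressors called lower was 4, 3 and 2 without WT/WT replicate 1, 2 or 3, and 5 without KO/KO replicate 3, so the count depended on single libraries.

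Ehmt2, which encodes the H3K9 methyltransferase G9a (chromosome 17, positions 34898469 to 34914052, GRCm38), had 269, 242 and 219 CPM in KO/KO and 355, 327 and 330 CPM in WT/WT. Every KO/KO library was below every WT/WT library, with a log2 fold change of -0.47 (SE 0.09, edgeR adjusted p = 0.00727). Kdm1a, which encodes the H3K4 demethylase LSD1 (chromosome 4, positions 136550540 to 136602723), had 131, 124 and 105 CPM in KO/KO and 168, 160 and 164 CPM in WT/WT. The genotypes again did not overlap, at a log2 fold change of -0.45 (SE 0.09, edgeR adjusted p = 0.0105). Both genes stayed lower and past the threshold whichever library was left out.

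L3mbtl2 (chromosome 15, positions 81663889 to 81688315), a member of a non-canonical Polycomb complex, had 53.0, 50.9 and 42.7 CPM in KO/KO and 71.2, 65.8 and 74.7 CPM in WT/WT. The log2 fold change was -0.53 (SE 0.10, edgeR adjusted p = 0.00919). Of its exon bases, 17.2% also lie in exons of Chadl, and the strand setting of the counts is not known. Without WT/WT replicate 3 the edgeR adjusted p of L3mbtl2 was 0.05002, just over the threshold. Rybp (chromosome 6, positions 100228565 to 100287485), a Polycomb subunit, had 36.7, 32.7 and 32.6 CPM in KO/KO and 42.2, 45.5 and 49.3 CPM in WT/WT. Its log2 fold change was -0.43 (SE 0.10, edgeR adjusted p = 0.0225). The Rybp call was lost when KO/KO replicate 3 was left out, at an edgeR adjusted p of 0.0546, and likewise for WT/WT replicate 2, at 0.0963, and replicate 3, at 0.106. It was also lost with the replicate number as a block, at 0.0514.

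Atrx, a chromatin remodeller gene of heterochromatin (chromosome X, positions 105797615 to 105929403), was the repressor that was higher and was named after its values were seen. It had 347, 348 and 323 CPM in KO/KO and 292, 288 and 282 CPM in WT/WT, a log2 fold change of 0.24 (SE 0.07, edgeR adjusted p = 0.0441). Leaving out any 1 library other than KO/KO replicate 3 took this call away, and DESeq2 did not make it. Trim28 and Setdb1, the co-repressor and the H3K9 methyltransferase that silence many retroviral LTRs, had log2 fold changes of -0.10 and -0.12 and did not pass the test. Nor did Dnmt1, the maintenance methyltransferase gene, at 0.04.

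Of 10 listed activators of MERVL and the cleavage-stage program, 9 were in the files and 5 had enough counts. Of these 5, 1 was higher and 1 lower, where 7.97% and 6.13% of all rows were. Dppa4, whose product acts with DPPA2 upstream of Dux in mouse embryonic stem cells (chromosome 16, positions 48283733 to 48294237), had 32.7, 53.5 and 47.6 CPM in KO/KO against 15.8, 17.5 and 16.9 CPM in WT/WT. The genotypes did not overlap and the log2 fold change was 1.42 (SE 0.17, edgeR adjusted p = 0.000888). Dppa2 (chromosome 16, positions 48303908 to 48319723) had 2.03, 1.72 and 2.03 CPM in KO/KO and 1.35, 1.39 and 1.35 CPM in WT/WT. Its log2 fold change of 0.50 did not pass the test (SE 0.24, edgeR adjusted p = 0.206).

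Tbx3, a T-box factor gene (chromosome 5, positions 119670669 to 119684724), was lower, at 2.08, 5.01 and 2.62 CPM in KO/KO and 16.2, 12.05 and 10.7 CPM in WT/WT. Its log2 fold change was -2.00 (SE 0.31, edgeR adjusted p = 0.00290). Nelfa, which encodes a subunit of the negative elongation factor, had a log2 fold change of 0.31 (edgeR adjusted p = 0.0810). Duxf3, the row for Dux, the factor that activates MERVL in the embryo, had 8, 25 and 11 counts in KO/KO libraries and 9, 5 and 4 counts in WT/WT libraries. These were too few for the test, and the genotypes overlapped.

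**Figure D5:**
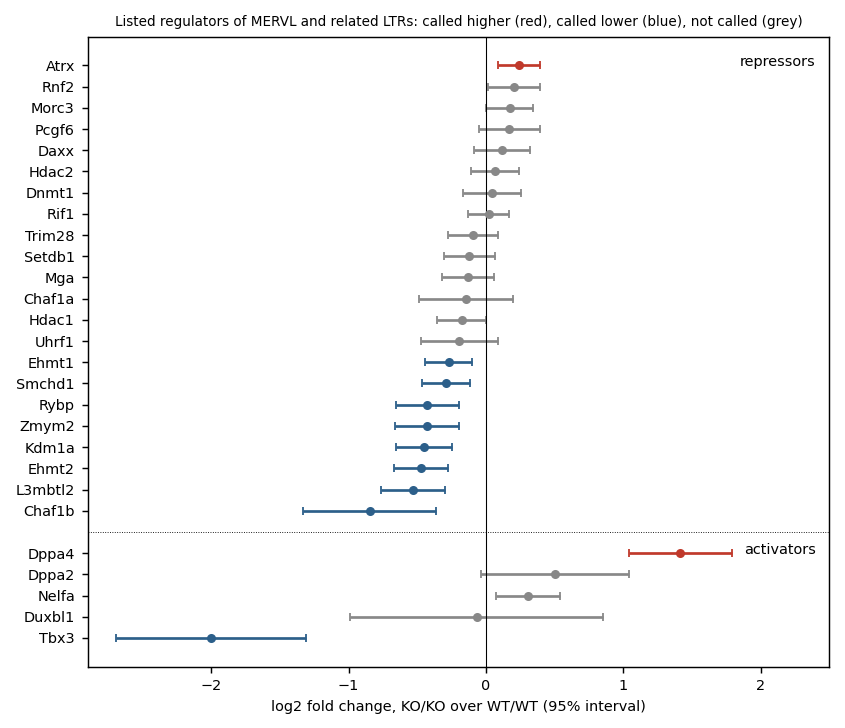
Log2 fold change of KO/KO over WT/WT, with its 95% interval, for 22 listed repressors of MERVL and other LTR elements (top) and 5 tested activators (bottom); red points were called higher, blue points lower and grey points neither. Of the repressors 8 are blue and 1 is red, and Dppa4, at 1.42, and Tbx3, at -2.00, lie farthest from 0.

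Genes transcribed with MERVL in the cleavage-stage embryo were close to absent from these cells. Of 24 listed genes, among them the Zscan4, Tdpoz and Usp17l families, 20 were in the files, 12 of them had 0 counts in every library and 15 had at most 6 counts over all libraries. The list summed to between 32 and 53 counts in KO/KO libraries and between 19 and 34 in WT/WT libraries, or 0.496 to 1.07 CPM in KO/KO and 0.395 to 0.833 CPM in WT/WT. Sp110 was the one gene with enough counts to be tested, at a log2 fold change of 0.24 (edgeR adjusted p = 0.802). Many of these genes are near-identical copies, whose counts depend on how reads with several positions were treated.

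Markers of other testis cells were read for the same libraries. Beside the numbers below, 7.97% of all rows were called higher and 6.13% lower. Of 7 tested endothelial genes 5 were higher in KO/KO, and the list summed to 125 to 165 CPM in KO/KO and 38.0 to 44.1 CPM in WT/WT. Pecam1, a defining endothelial gene, was not among them, with overlapping genotypes and a log2 fold change of 0.16. Sertoli markers summed to 397 to 564 CPM in KO/KO and 365 to 580 CPM in WT/WT, with 1 of 8 higher. That gene was Rhox5, at 20.6, 21.3 and 28.8 CPM in KO/KO and 1.05, 1.02 and 0.368 CPM in WT/WT. Its log2 fold change was 4.84 (SE 0.32, edgeR adjusted p = 7.1e-05), and no other Sertoli gene was called. Interstitial stromal markers summed to 36.9 to 53.3 CPM in KO/KO and 76.6 to 105.9 CPM in WT/WT, with 2 of 5 lower. Germ cell and spermatogonial markers summed to 2097 to 2398 CPM in KO/KO and 2071 to 2179 CPM in WT/WT, with 3 of 10 higher and 4 lower. The 3 genes higher in that list were Id4, the gene of the sorting reporter, Gfra1 and Ret. Their log2 fold changes were 1.89, 1.01 and 0.80. Kit, a receptor gene of differentiating spermatogonia, was lower at -2.81, and so were Zbtb16 at -0.56, Sall4 at -0.36 and the scarce Dppa3. The list as a whole thus did not move in one direction. Peritubular myoid, macrophage and erythroid markers had 1 gene higher each, and Leydig markers none. The part of these differences in the levels of the repeat families and their regulators was not tested.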

How the data were processed

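RNA was measured in 3 KO/KO and 3 WT/WT libraries made with a stranded total RNA kit, per the labels' protocols. Per the submitters' processing notes, the authors used the tools STAR 2.7.0a, featureCounts 1.5.1 and the build mm10. What they deposited is a raw count for every gene and every repeat family. The gene and repeat annotation, the strand setting and how multi-mapping reads were treated are not stated in those notes or in the labels. Multi-mapping reads make up much of what young repeat families yield, so family counts depend on that treatment.

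CPM were computed from the sum of the gene rows times TMM factors of the gene rows. Genes and families were fitted together with edgeR 4.0.16 in R 4.3.3 (quasi-likelihood F test, filterByExpr, genotype as the only term, two-sided), with Benjamini-Hochberg adjustment over all 22473 rows tested. The SE is the size of the log2 fold change over the square root of F, and the 95% interval uses the fit's degrees of freedom. The fit was tested on simulated counts with the means and spread of the real rows. In each of 3 draws 200 genes and 40 families were changed, far fewer than the 3169 rows called in the real fit. The fit recovered 54.4% of the families changed 2-fold and 98.4% of those changed 4-fold. These shares depend on how many rows change and pool families of many levels. They therefore do not give the power of the real fit for a given member. Of all its calls there, 7.78% were false.

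Named members are those called, the 2 most abundant and the 2 highest and 2 lowest fold changes of each subgroup (mean of at least 1 CPM for the latter), MERVL-int, MERVL_2A-int, and MT2_Mm and MTA_Mm with their internal parts. From each pathway list up to 4 genes with the smallest p are named. Any other gene was picked after its values were known. The members, lists and tests were chosen with earlier results of these data known. Gene positions and exon overlaps come from GENCODE M21 on GRCm38. Alternatives were other scalings and filters, a replicate block, DESeq2 1.42.0, limma-voom (limma 3.58.1), families fitted alone and each library left out. Python 3.11.15 with matplotlib 3.10.9 drew the figures.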

Additional observations from a re-analysis of the deposited data

How the results depend on the processing

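The numbers of members called were 1 higher and 0 lower with gene totals alone, RLE factors, totals of the repeat families, no filter, a filter of 1 CPM in 3 libraries, DESeq2, limma-voom and the families fitted alone. The 1 member called higher became 0 when p was adjusted over the families alone, and 0 to 2 when 1 library was left out, the 2 being ORR1D-int and MLT1C2-int without KO/KO replicate 3. Over all rows, deviations of same-numbered libraries correlated at -0.12, 0.05 and 0.06, and only KO/KO replicate 3 correlated best with its own number. Over the members the values were -0.19, -0.14 and -0.03. With 3 libraries a genotype, these values cannot decide whether the replicate numbers pair the libraries. With the replicate number as a block, 0 members were called higher and 0 lower, the edgeR adjusted p of ORR1G-int was 0.0688, 0 repressors were higher and 6 lower, and 2568 rows were called in place of 3169. The number of repressors higher was 2 with gene totals alone, 0 without a filter, 0 with DESeq2 and 0 to 1 with 1 library left out, and the number lower was 2 to 8 with 1 library left out. The number of activators higher was 2 with gene totals alone and 2 at a threshold of 0.1. With gene totals alone the median log2 fold change was 0.096 for all members, and the log2 ratio of their sums 0.089; the median was 0.11 for MT and 0.15 for the other MLT rows, and the log2 ratio of their sums was 0.089 and 0.15, while the median of all genes became 0.09. With 1 library left out, the median ran between -0.070 and 0.085 for MT2 and between -0.023 and 0.10 for ORR1, the upper ends being without KO/KO replicate 3. Over 624 alternative values of the 39 named members other than ORR1G-int, none of which was called at first, 47 had the other sign. MERVL-int was among them, at 0.079 with gene totals alone and 0.068 without KO/KO replicate 3. No called value changed sign. With 3 libraries a genotype and family-wide counts, single copies that changed within a family would not be seen.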
